A study of Mus musculus with 93 samples.

Results

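Mitochondrial ribosomal protein genes were taken as all genes whose symbol is Mrpl or Mrps, a number and at most 1 further letter. This rule found 78 of the 24514 genes in the count table, 49 with Mrpl and 29 with Mrps symbols, and all 78 had reads. The study asked what kind of heart progenitors form in spheroids of mouse embryonic stem cells and compared them with progenitors sorted from mouse embryos. Embryos were of the genotype Hcn4GFP; Tbx1Cre; Ai9, and the spheroids were grown from an embryonic stem cell line of the same genotype, so all 4 groups share the 3 alleles. GFP+ cells express the Hcn4 reporter of the first heart field, and RFP+ cells carry the permanent Ai9 label left by the Cre recombinase of Tbx1, a gene of the second heart field. Since the label is permanent, RFP+ cells include descendants that no longer transcribe Tbx1. Embryos, dated E8.5 in the titles and E7.75 in the design text, gave 5 libraries of GFP+ and 4 of RFP+ cells. Day 5.5 spheroids gave 38 and 46. Each library holds the RNA of 10 sorted cells, and nothing ties wells to embryos or differentiations, so every test measures the spread between wells.

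The mitochondrial ribosome translates the few messenger RNAs of the mitochondrial genome, which encode subunits of the respiratory chain. Its proteins are encoded in the nucleus, made in the cytosol and imported, and they form a small subunit that reads the message and a large subunit that joins the amino acids. Some have a counterpart in bacterial ribosomes and others are found only in mitochondria. Heart muscle relies on respiration, and the number of mitochondria grows as cardiomyocytes mature. Some members have other places than their names give. Mrps30 and Mrps18a belong to the large subunit, and Mrps36 is now known as a subunit of a mitochondrial dehydrogenase.

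The genes lie on 17 chromosomes and have short transcripts. The median length of their principal transcripts was 1302 bases, against 2409 bases over all genes of the table. RefSeq promoters, 250 bases before to 50 bases after the start in GRCm38.p6, were at hand for 69 of the 78. The binding letters of NRF1, a regulator of nuclear genes for mitochondria, are GCGCATGCG. They were found on either strand in 7 of these 69 promoters (10.1%) and in 2.0% of 27025 promoters of genes at large. These 27025 leave out 1 chromosome, which holds no member. The ETS letters CCGGAAGT were found in 17.4% against 4.3%, and the YY1 letters AAGATGGCG in 11.6% against 1.6%. The shorter letters GGGCGG of Sp1 differed less, with 49.3% against 38.2%, and the E-box CACGTG was found in 7.2% against 8.1%. Promoters of the members were also richer in G and C, with a median of 58.7% against 52.7%, which these motifs share. In 6 of the 8 promoters with YY1 letters these lay at or after the start, where all 7 NRF1 matches lay before it. The NRF1 letters overlap their own reverse complement in all but 1 base, so a longer match counts on both strands.

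To show such matches in their setting, 4 promoters are printed. They are those with NRF1, ETS or YY1 letters in a stretch of 232 to 250 bases before the RefSeq start that no annotated exon covers. They read 5′ to 3′ on the strand of the gene, with the matched letters in capitals. Mrpl22 and Mrpl9 carry NRF1 letters, and Mrps22 and, on the opposite strand, Mrpl48 carry ETS letters. Bases next to the start that an exon covers were left out, 3 for Mrpl22 and 18 for Mrpl9. The Mrpl48 stretch lies inside the gene as GENCODE annotates it (chr7:100545751-100608301), so its match is not upstream of the whole gene. In GRCm38.p6 the stretches are chr11:58171414-58171660 (plus strand), chr3:94443086-94443317 (plus), chr7:100583131-100583380 (minus) and chr9:98601680-98601929 (minus) in the order printed.
Mrpl22: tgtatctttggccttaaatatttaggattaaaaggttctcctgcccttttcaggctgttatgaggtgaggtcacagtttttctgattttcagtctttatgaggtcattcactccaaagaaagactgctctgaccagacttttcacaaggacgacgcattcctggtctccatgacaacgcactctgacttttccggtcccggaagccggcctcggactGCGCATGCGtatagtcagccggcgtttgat
Mrpl9: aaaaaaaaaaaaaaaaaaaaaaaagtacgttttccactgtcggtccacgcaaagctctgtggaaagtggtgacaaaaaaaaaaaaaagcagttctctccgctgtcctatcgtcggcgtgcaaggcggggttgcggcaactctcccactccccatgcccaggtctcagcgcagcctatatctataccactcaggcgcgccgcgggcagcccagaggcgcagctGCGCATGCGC
Mrpl48: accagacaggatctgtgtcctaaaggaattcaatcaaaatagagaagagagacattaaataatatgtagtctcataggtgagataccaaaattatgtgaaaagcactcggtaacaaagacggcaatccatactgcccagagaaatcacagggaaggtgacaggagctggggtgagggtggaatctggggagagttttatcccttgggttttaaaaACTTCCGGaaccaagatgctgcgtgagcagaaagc
Mrps22: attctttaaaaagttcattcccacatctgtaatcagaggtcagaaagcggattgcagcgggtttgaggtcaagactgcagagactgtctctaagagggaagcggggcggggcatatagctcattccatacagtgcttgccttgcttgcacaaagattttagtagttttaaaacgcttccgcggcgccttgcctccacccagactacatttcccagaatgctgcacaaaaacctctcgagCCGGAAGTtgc

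Embryo libraries held between 712732 and 2525460 reads counted on genes, and spheroid libraries between 445071 and 5658882 apart from the GFP+ library of well C9 with 6288. Embryo GFP+ libraries showed reads of 6189 to 8302 genes each and embryo RFP+ libraries of 10263 to 13052. Hcn4 averaged 14.1 CPM (counts per 1000000 counted reads) in embryo GFP+ and 0.338 CPM in embryo RFP+ libraries, and Tbx1 had no read in embryo GFP+ and 3.79 CPM on average in embryo RFP+ libraries, in the direction of the labels. In spheroids Hcn4 averaged 7.34 CPM in GFP+ and 0.441 CPM in RFP+ libraries. All 93 wells bear different names, with spheroid RFP+ wells in columns 1 to 6 and spheroid GFP+ wells in columns 7 to 11, so population and column cannot be told apart there. In 7 plate rows the RFP+ wells of columns 3 and 4 were close (r of 0.976 to 0.994 between log2 CPM) but differed by more than counting noise. They were kept as separate libraries, though such a difference does not show that they are independent.

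Together the 78 genes took the smallest share of the reads in embryo GFP+ cells. Their summed level was 6273, 6051, 5618, 6359 and 6738 CPM in the embryo GFP+ libraries A12 to E12. In the embryo RFP+ libraries F12, G11, G12 and H11 it was 10211, 12561, 11818 and 12417 CPM. The ranges did not overlap, and the mean in RFP+ cells was 1.89 times that in GFP+ cells. Spheroid GFP+ libraries ranged from 7830 to 9695 CPM with a median of 8593, and spheroid RFP+ libraries from 10165 to 12126 CPM with a median of 11167. Here too none of the 38 GFP+ libraries reached any of the 46 RFP+ libraries, with a ratio of means of 1.297. The plot of summed levels shows that embryo and spheroid RFP+ cells lay close (ratio of means 1.05) and that embryo GFP+ cells lay below spheroid GFP+ cells (0.721). These are shares of all counted RNA, so a lower share in these pools cannot be told apart from more RNA of other genes, nor fewer cells with these transcripts from less RNA per cell.

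**Figure D1:**
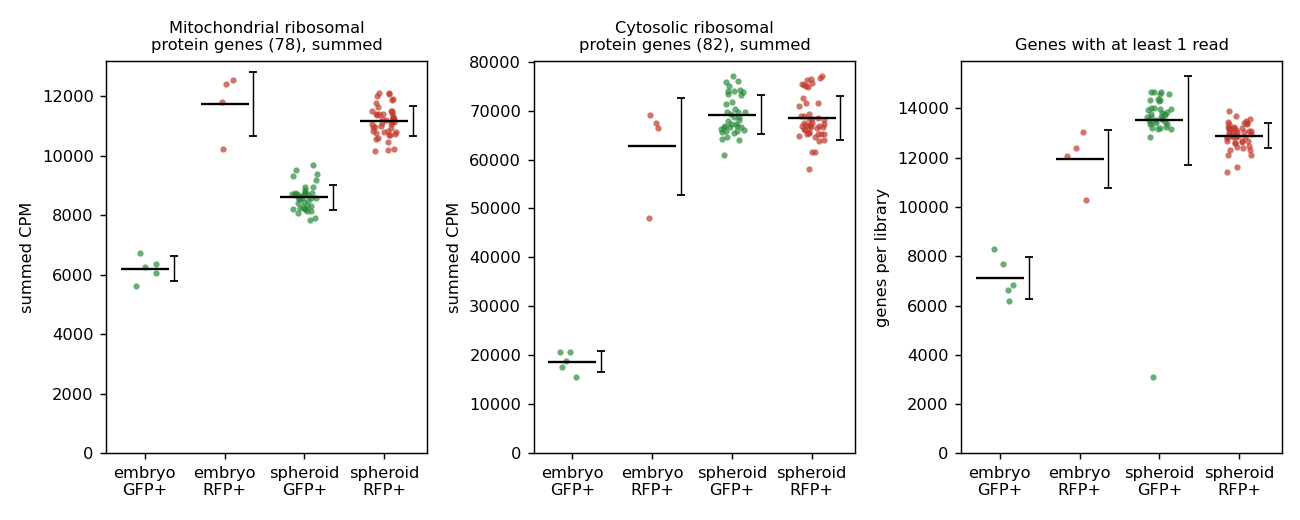
Each point is 1 library, shown by group on the horizontal axis (green GFP+, red RFP+), with black lines for the mean and bars for the SD. The vertical axes give, from left to right, the summed CPM of the 78 mitochondrial ribosomal protein genes, that of 82 cytosolic ribosomal protein genes, and the number of genes with reads; the embryo GFP+ libraries lie lowest in the first 2 panels and the spheroid RFP+ libraries lie above the spheroid GFP+ libraries only in the first.

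The spheroid difference appeared in every plate row. In 8 of 8 rows the RFP+ libraries all lay above the GFP+ libraries, with ratios of the row medians from 1.27 to 1.33. It was also alike in deep and shallow libraries, with medians of 8688 and 8582 CPM in GFP+ and 11200 and 11134 CPM in RFP+ libraries. By column, medians ran from 8269 to 8747 CPM over the GFP+ columns and from 10696 to 11914 CPM over the RFP+ columns. Of the embryo libraries, 5 GFP+ and 2 RFP+ lie in column 12, and within it the ratio of means was 1.77. Both remaining embryo RFP+ libraries lie in column 11. Embryo GFP+ wells lie in rows A to E and embryo RFP+ wells in rows F to H, so row and population cannot be told apart in embryos. The part of the sort and the culture of each population was not tested.

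Neither subunit alone carried the shift. Genes with Mrps symbols summed to 1522 to 1878 CPM in embryo GFP+ and 2918 to 3523 CPM in embryo RFP+ libraries. Genes with Mrpl symbols summed to 3769 to 5216 and 7294 to 9221 CPM. The ratio of Mrps to Mrpl sums was 0.398 ± 0.0742 (SD, n = 5) in embryo GFP+ and 0.386 ± 0.0170 (SD, n = 4) in embryo RFP+ libraries, a difference smaller than the spread. In spheroids it was 0.438 ± 0.0245 (SD, n = 38) in GFP+ and 0.411 ± 0.0161 (SD, n = 46) in RFP+ libraries. That difference was larger than either SD, though the ranges overlapped, and it was not tested. Mrps sums averaged 2622 CPM in spheroid GFP+ and 3250 CPM in spheroid RFP+ libraries, and Mrpl sums 5989 and 7916 CPM.

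Per transcript length, members differed widely in level. Mrpl42, a large subunit protein found only in mitochondria, had the highest median over the 93 libraries with 745 TPM (transcripts per 1000000), 40.2 times that of the lowest. Mrps18c, Mrpl52, Mrpl20 and Mrps21 followed with 571, 542, 536 and 498 TPM. Mrps18c and Mrps21 have bacterial counterparts in the small subunit, Mrpl20 one in the large subunit, and Mrpl52 is mitochondrial only. The lowest were Mrps30 and Mrps26 with 18.5 and 18.7 TPM, followed by Mrpl48 with 24, Mrpl19 with 31.7 and Mrps25 with 32.1 TPM. In the plot of TPM by gene the order was broadly shared by the groups, and the embryo GFP+ medians scattered most. Their lowest values were 0 TPM for Mrps30 and Mrpl47. Members whose exons overlap those of a counted neighbour are less certain, since the strand setting of the counting is not given in the sources used here. Of the genes named here this touches Mrps25 most, with 69.8% of its exon bases shared with Nr2c2, and Mrpl19, with 36% shared with Gcfc2. Mrpl47 follows with 24.2% shared with Actl6a and Ndufb5.

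**Figure D2:**
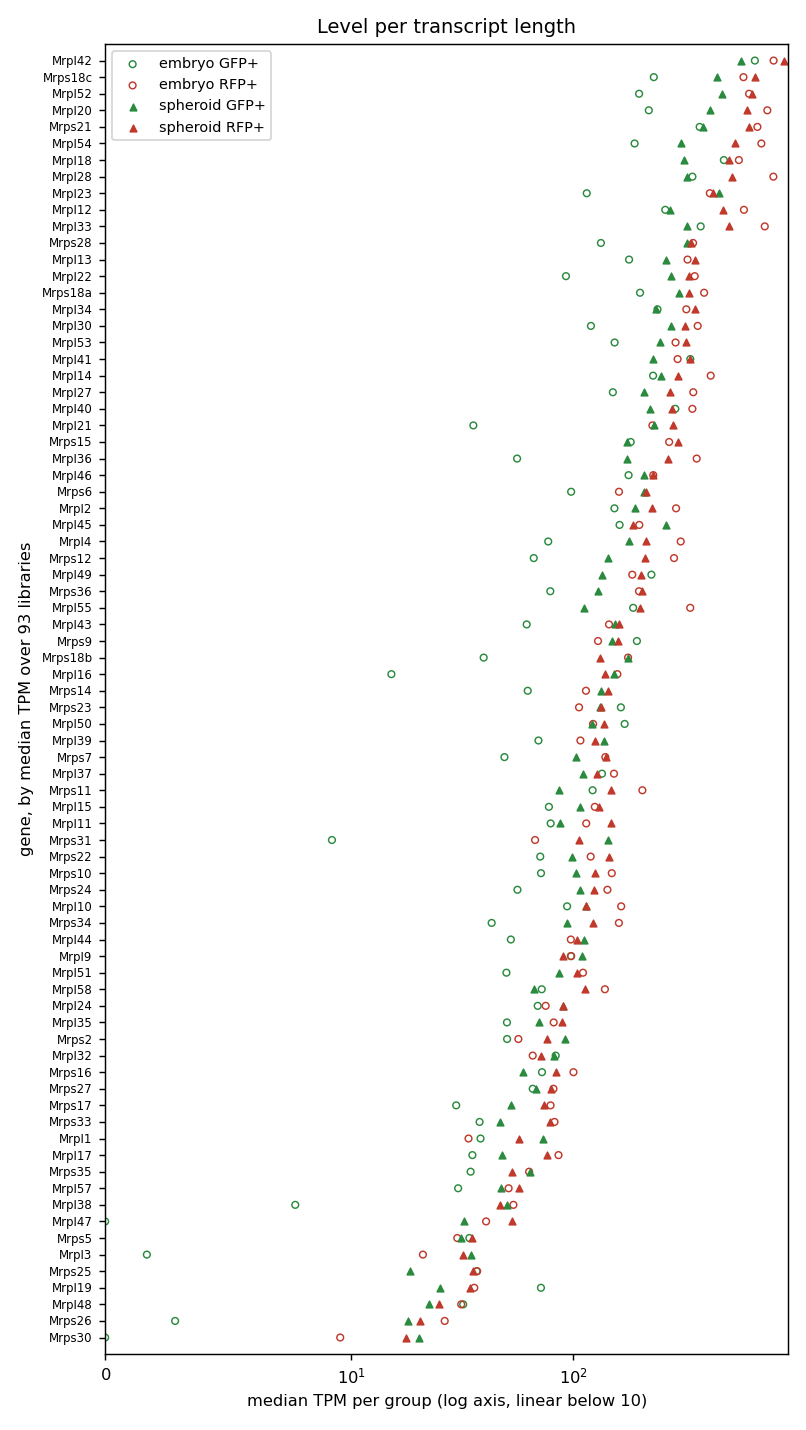
Each row is 1 of the 78 genes, ordered by its median TPM over all 93 libraries, and the horizontal axis gives the median TPM in each group on a log scale that is linear below 10 (open circles embryo, triangles spheroid, green GFP+, red RFP+). Mrpl42 lies at the top and Mrps30 at the bottom, and the open green circles of embryo GFP+ cells leave the others most often.

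In embryos, 7 of the 78 genes were called higher in RFP+ than in GFP+ cells and 0 lower (edgeR quasi-likelihood test, adjusted p under 0.1 over 8503 genes). All 78 passed the filter on low counts. The 7 are 9.0% of the members, against 6.21% of all tested genes (3.88% were called in the other direction), so the share of calls was near the background. Sizes were another matter. The median log2 fold change of the members was 1.06 against 0.09 over all tested genes, 69 of 78 were positive, and the quartiles were 0.55 and 1.39. With a median standard error of 0.75 a change of this size is rarely called with these 9 libraries. At an unadjusted p under 0.05 there were 16 of 78 members, against 16.2% of all tested genes. In 27 members (34.6%) every RFP+ library lay above every GFP+ library, against 13.6% of all tested genes, and in 0 members was it the other way round, against 3.73% of all tested genes.

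The heat map of the embryo libraries shows how the groups were built. All 78 genes had reads in each RFP+ library, where each GFP+ library had reads of 66 to 77, and 56 had reads in all 5 GFP+ libraries. The coefficient of variation of the median member was 69.8% among GFP+ and 19.4% among RFP+ libraries. Other genes of the same level scattered more, with 96.9% and 23.5%.

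**Figure D3:**
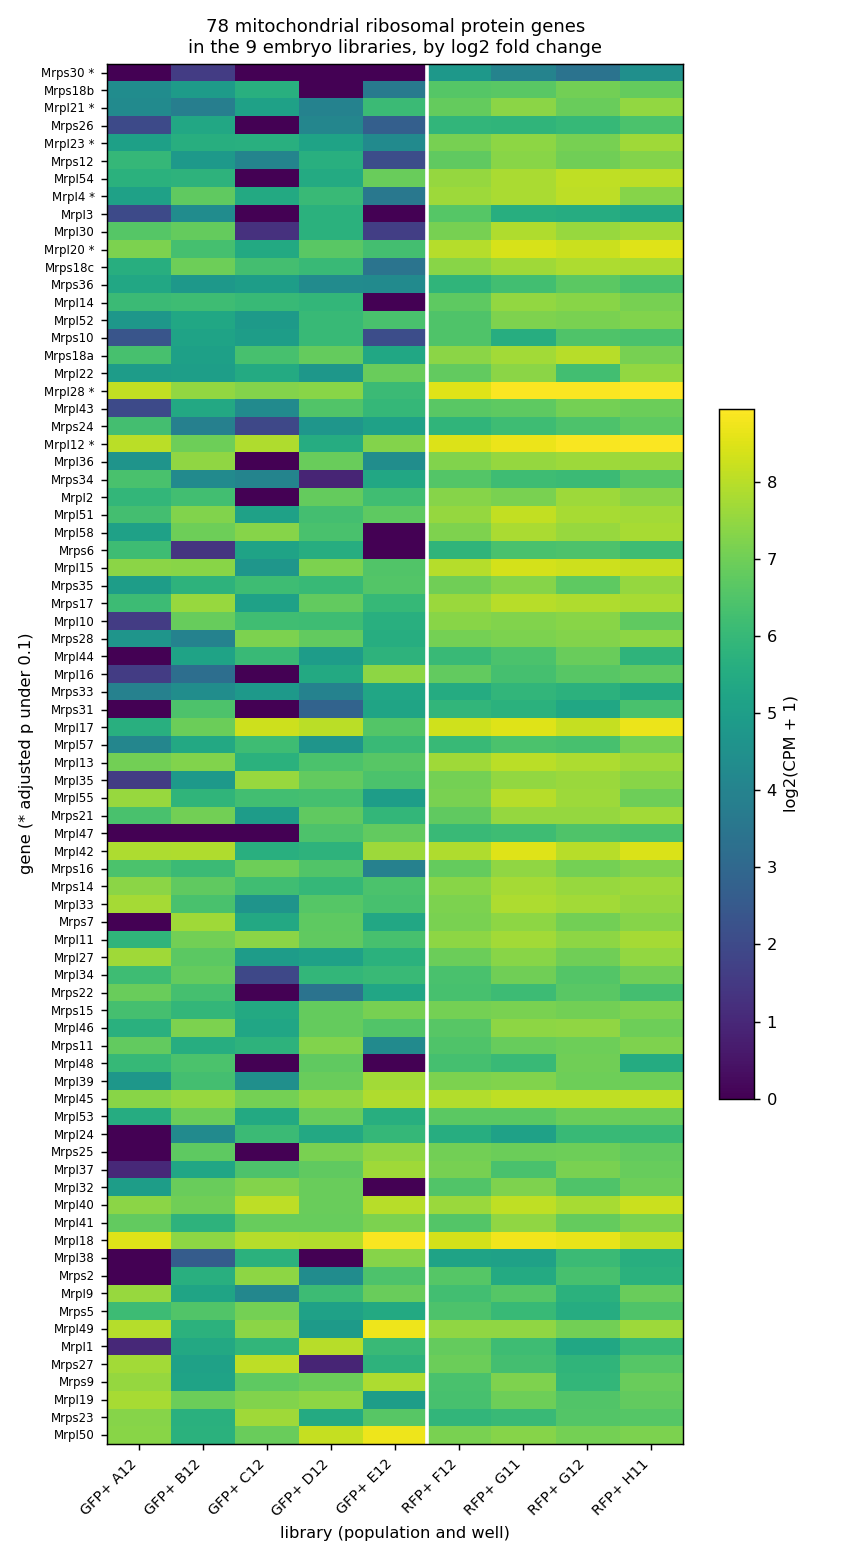
Each row is 1 of the 78 genes and each column 1 embryo library named by population and well, coloured by log2(CPM + 1), with rows ordered by log2 fold change of RFP+ against GFP+ cells and the 7 called genes starred. The 4 RFP+ columns on the right are even, while the 5 GFP+ columns hold scattered genes without reads.

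All 7 called genes encode proteins of the large subunit. They were 6 of its 30 members with a bacterial counterpart and 1 of its 21 mitochondria-specific members, with median log2 fold changes of 1.10 and 0.66 in these classes. Of the small subunit 0 of 16 and 0 of 10 were called, with medians of 0.97 and 1.11, and whether the classes differ was not tested. Mrpl20, a protein of the large subunit core encoded at chr4:155802878-155809975 on the plus strand (GRCm38, GENCODE), was at 144, 78.4, 42.1, 99.7 and 75.5 CPM in GFP+ and at 244, 341, 298 and 368 CPM in RFP+ libraries. The groups did not overlap, and the log2 fold change was 1.81 ± 0.43 (SE) with an adjusted p of 0.0181. The call held whichever single library was left out, with adjusted p between 0.0108 and 0.0905.

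Mrpl28, also of the large subunit, was at 279, 181, 154, 163 and 66.7 CPM in GFP+ and at 360, 479, 470 and 492 CPM in RFP+ libraries. Its log2 fold change was 1.40 ± 0.38 (adjusted p = 0.0371), and the call was lost without G11 or without H11 (adjusted p at most 0.122). Mrpl12 forms the stalk of the large subunit and is also known to bind the mitochondrial RNA polymerase. It was at 256, 124, 236, 45.9 and 154 CPM in GFP+ and at 350, 411, 461 and 469 CPM in RFP+ libraries, with a log2 fold change of 1.38 ± 0.43 (adjusted p = 0.0713). Again no GFP+ library reached an RFP+ library, though the GFP+ libraries spread widely. The call was lost without B12, without E12 or without any 1 of the RFP+ libraries (adjusted p at most 0.209), and with DESeq2 or RLE size factors.

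Mrpl23 and Mrpl4 line the peptide exit tunnel or its mouth in the large subunit. Mrpl23 was at 32.7, 47.5, 49.1, 35.3 and 18.6 CPM in GFP+ and at 138, 171, 136 and 203 CPM in RFP+ libraries, a log2 fold change of 2.14 ± 0.62 (adjusted p = 0.0525). Mrpl4 was at 33.7, 107, 42.1, 66.1 and 10.9 CPM in GFP+ and at 200, 225, 266 and 157 CPM in RFP+ libraries, a log2 fold change of 1.98 ± 0.64 (adjusted p = 0.0893). Mrpl21, which has a bacterial counterpart, was at 18.4, 13.1, 33.7, 14.6 and 67.8 CPM in GFP+ and at 114, 167, 117 and 178 CPM in RFP+ libraries, a log2 fold change of 2.30 ± 0.76 (adjusted p = 0.0958). In all 3 the RFP+ libraries lay above the GFP+ libraries without overlap, but without any 1 of the RFP+ libraries the call was lost for each of them (adjusted p at most 0.249, 0.256 and 0.331). That of Mrpl4 was also lost without A12 or C12, and that of Mrpl21 without B12 or D12. RLE size factors ended the calls of Mrpl4 and Mrpl21, and a robust fit that of Mrpl21.

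Mrps30, a mitochondria-specific protein of the large subunit despite its name, is encoded at chr13:118378381-118387252 on the minus strand and had the largest fitted change. It had no reads in 4 GFP+ libraries and 1.98 CPM in B12, which is 5 reads over the group, and was at 26.3, 15, 9.63 and 20.9 CPM in RFP+ libraries. The ratio of the pooled rates was 26.9 with an exact Poisson interval of 11.1 to 84.6 that covers counting error only. The fitted log2 fold change was 4.93 ± 1.43 (adjusted p = 0.0536). Leaving out G12 or any GFP+ library kept the call, and leaving out F12, G11 or H11 ended it (adjusted p at most 0.128), as did fitting without a filter on low counts.

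The 3 paralogs of the bacterial protein S18 sit at different places of the ribosome, Mrps18c and Mrps18b in the small and Mrps18a in the large subunit. In embryos all 3 were higher in every RFP+ library than in every GFP+ library and none was called. Mrps18a averaged 69.5 ± 33.4 CPM (SD, n = 5) in GFP+ and 190 ± 50 CPM (SD, n = 4) in RFP+ libraries, with a log2 fold change of 1.44 ± 0.54 (adjusted p = 0.164). Mrps18b averaged 21.9 ± 18.5 and 110 ± 16.5 CPM, with 2.35 ± 1.16 (adjusted p = 0.362). Mrps18c averaged 64.9 ± 42.2 and 205 ± 29.7 CPM, with 1.63 ± 0.63 (adjusted p = 0.185).

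Of the 9 members with a negative log2 fold change, 3 are given here. Mrpl50, found only in mitochondria, was at 51.5 to 416 CPM in GFP+ and at 133 to 159 CPM in RFP+ libraries, with a log2 fold change of -0.53 ± 0.54. Mrpl19, at the interface of the subunits, was at 30.6 to 217 CPM in GFP+ and at 79.5 to 124 CPM in RFP+ libraries (-0.46 ± 0.59). For Mrpl1, part of the stalk region, 1.02 to 254 CPM in GFP+ compared with 39.3 to 114 CPM in RFP+ libraries (-0.24 ± 1.04). The RFP+ range of each lay inside the GFP+ range, and adjusted p was at least 0.799.

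Other values moved with the embryo comparison. The summed CPM of 10 cardiomyocyte markers, all with reads in both populations, was 20194 to 47429 in GFP+ and 1119 to 2275 in RFP+ libraries. Of 10 endoderm markers, 2 had reads in GFP+ libraries (summed CPM 0 to 28.1; Sox17, Foxa2, Foxa1, Epcam, Cdh1, Ttr, Afp and Cldn6 at 0) and 9 in RFP+ libraries (12.8 to 676; Afp at 0). The 82 cytosolic ribosomal protein genes, which are short and highly expressed, summed to 15665 to 20791 CPM in GFP+ and 48025 to 68982 CPM in RFP+ libraries. Of the 76 tested, 68 were called higher in RFP+ cells, and their median log2 fold change was 1.83. The part of these markers, of the cytosolic ribosomal genes and of the lower number of detected genes in the members' values was not tested.

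Since the members are short, they were set beside other genes of their length. Among genes outside the family the median log2 fold change in embryos fell from 1.26 for transcripts up to 750 bases to 0.84 for 1000 to 1500 bases and to -0.19 for 3000 to 5000 bases. The members lay above the other genes in each of the 7 length classes, by 0.13 to 1.25, with 3 to 22 members per class. In the 2 shortest classes their medians were 1.43 and 1.37 against 1.26 and 1.05. From 3000 to 5000 bases it was 1.01 (n = 14) against -0.19. The 39 shorter members had a median of 1.33 and the 39 longer ones of 0.90. The gap was smallest from 1500 to 2000 bases, with 0.43 (n = 6) against 0.29. It was widest over 5000 bases, with 1.08 (n = 3) against -0.17.

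After the trend of each library on transcript length was removed, the members' median in embryos was 0.50 against 0.20 over all tested genes. The gap was 0.30 in place of 0.97. The trend was set on genes with reads in every library of a comparison, 3220 in embryos. Members and cytosolic ribosomal genes were not left out of it, so it can take up part of their own shift. Within the members' 10th to 90th percentile of length (684 to 4174 bases) it was 0.54 for 62 members against 0.21 for 5496 other genes. With the summed length of all exons in place of the transcript the members' median was 0.67. By transcript length 4 of 78 members were called higher, about the share among all tested genes (4.95%, with 3.16% lower). Of these 4, 1, Mrps30, was among the 7 and the others were Mrpl15, Mrpl17 and Mrpl51. The cytosolic ribosomal genes kept a median of 0.94. A biological and a technical difference that both follow length cannot be told apart here.

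**Figure D4:**
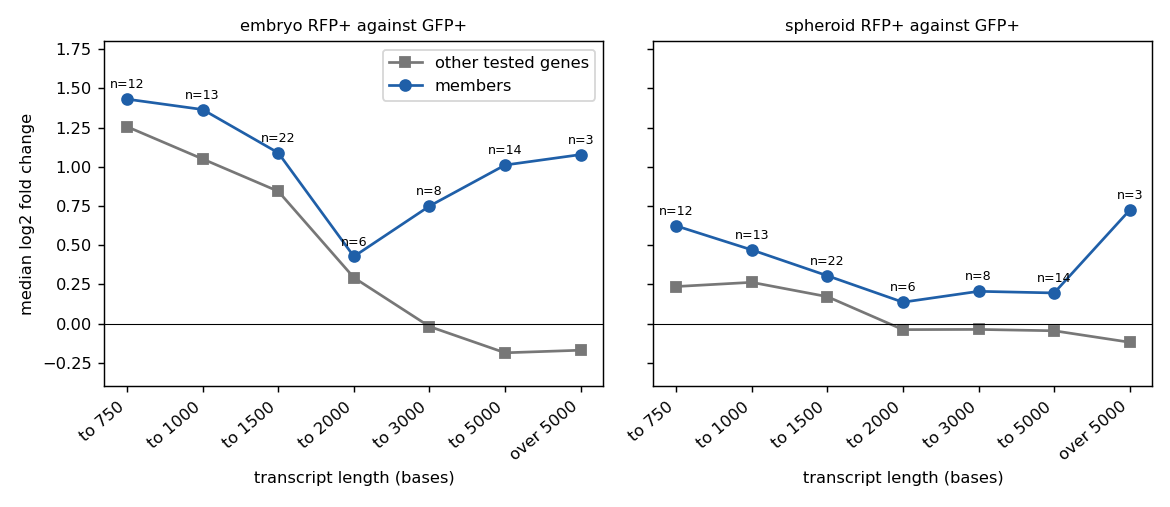
The vertical axis gives the median log2 fold change of RFP+ against GFP+ cells in embryos (left) and spheroids (right), by class of transcript length in bases on the horizontal axis, for the members (blue, with their number) and for all other tested genes (grey). In embryos the grey line falls from 1.26 to below 0 as transcripts lengthen, and the blue line lies above it in all 7 classes of both panels.

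In spheroids most members were higher in RFP+ cells. Of the 78 genes, 58 (74.4%, and the same 58 genes without C9) were called higher in RFP+ and 10 (12.8%) lower, where the shares among the 9940 tested genes were 37.8% and 40.1%. The changes were small, with a median log2 fold change of 0.33 against -0.02 over all tested genes, quartiles of 0.09 and 0.63, and a median standard error of 0.06. The cytosolic ribosomal protein genes did not share this shift, with 35 of 77 called higher, 24 lower and a median of 0.04. Among genes outside the family, medians ran from 0.24 in the shortest length class to -0.12 in the longest, and members lay above them in all 7 classes. With the length trend removed 51 members were called higher and 14 lower, against 40.8% and 37.4% of all tested genes, with a median of 0.28 against 0.03 for all tested genes, and all 51 were among the 58. Levels of some markers also differed between the populations. Endoderm markers, all 10 with reads in both, summed to 269 to 682 CPM in GFP+ and 45.6 to 380 CPM in RFP+ libraries, and pluripotency markers to 99.7 to 1666 and 7.44 to 574 CPM. The 10 cardiomyocyte markers, far apart in embryos, had close medians here. They summed to 0 to 1277 CPM (median 53.7) in GFP+ and 18.6 to 132 CPM (median 59.0) in RFP+ libraries. The part of these markers in the members' values was not tested.

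The largest rise was that of Mrps25, a mitochondria-specific protein of the small subunit that shares most of its exon bases with Nr2c2. Apart from C9 it ranged from 28.3 to 102 CPM with a median of 58.9 in GFP+ and from 94.5 to 151 CPM with a median of 118 in RFP+ libraries, and 1 GFP+ library reached the RFP+ range. The log2 fold change was 0.96 ± 0.07 (SE; adjusted p = 1.04e-24). Mrpl55, a large subunit protein with a bacterial counterpart, had medians of 55.3 and 102 CPM, ranges of 31.2 to 76.6 and 66.9 to 160 CPM, and a log2 fold change of 0.90 ± 0.07 (adjusted p = 4.05e-23). Here 7 GFP+ libraries lay within the RFP+ range.

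Once C9 was set aside, the spheroid populations did not overlap in Mrpl12 and, by a narrow margin, in Mrpl28. How many of all tested genes do the same was not counted. Mrpl12 lay between 139 and 242 CPM (median 188) in 37 GFP+ libraries and between 291 and 383 CPM (median 344) in RFP+ libraries, with a log2 fold change of 0.84 ± 0.04 (adjusted p = 4.16e-38). In C9, which had few reads, it was at 318 CPM. Mrpl28 lay between 133 and 241 CPM in GFP+ and between 242 and 403 CPM in RFP+ libraries, with 0.71 ± 0.05 (adjusted p = 6.01e-27). Both were among the 7 genes called in embryos.

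Mrpl11, which forms the base of the stalk, rose from a median of 137 to 246 CPM, by 0.83 ± 0.05 (adjusted p = 2.49e-28). Mrpl54, mitochondria-specific, went from 97.5 to 176 CPM, by 0.81 ± 0.05 (adjusted p = 2.96e-26). Mrps11, of the platform of the small subunit, went from 47.7 to 84.4 CPM, by 0.80 ± 0.07 (adjusted p = 3.75e-20). The populations overlapped in all 3, by 1, 2 and 11 GFP+ libraries.

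The 10 genes called higher in GFP+ cells went against the rest. Mrpl45, which tethers the ribosome to the inner mitochondrial membrane, ranged from 239 to 441 CPM (median 331) in 37 GFP+ and from 203 to 296 CPM (median 249.3) in RFP+ libraries, and 33 GFP+ libraries lay above all RFP+ libraries. Its log2 fold change was -0.47 ± 0.04 (adjusted p = 1.01e-18). Mrps31 and Mrps35, both mitochondria-specific small subunit proteins, had -0.43 ± 0.06 and -0.21 ± 0.05 (adjusted p = 5.10e-10 and 9.86e-05). Their medians were 114 and 141 CPM in GFP+ and 86.0 and 122 CPM in RFP+ libraries, with wide overlap.

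Mrps18b had medians of 100.1 CPM in GFP+ and 78.7 CPM in RFP+ libraries, with -0.33 ± 0.05 (adjusted p = 6.61e-08). Its paralogs went the other way, Mrps18c with 0.62 ± 0.04 (adjusted p = 3.20e-24) and Mrps18a with 0.18 ± 0.05 (adjusted p = 0.000626); with the length trend removed Mrps18a was at -0.01. Mrps30 fell from a median of 36 CPM in GFP+ to 32.8 CPM in RFP+ libraries, with -0.31 ± 0.10 (adjusted p = 0.00400), opposite to its direction in embryos. Mrpl1 had -0.25 ± 0.06 (adjusted p = 4.17e-05).

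In both sources 6 of the 78 members were called, against 7.91% of 8182 genes tested in both. Of the 7 members called in embryos 6 were thus called in spheroids, near the 83.1% among all genes called higher in embryo RFP+ cells. Of the 6, 5, Mrpl20, Mrpl28, Mrpl12, Mrpl4 and Mrpl21, were higher in RFP+ cells in each. In spheroids their log2 fold changes were 0.62 ± 0.04, 0.71 ± 0.05, 0.84 ± 0.04, 0.34 ± 0.06 and 0.34 ± 0.04. The sixth, Mrps30, changed sign. Mrpl23, called in embryos, was not called in spheroids, with -0.04 ± 0.05 (adjusted p = 0.479). By sign alone 56 members were higher in RFP+ cells in both sources and 13 were higher in embryos and lower in spheroids, as the plot of the 2 fold changes shows. Tested directly, the change in embryos differed from that in spheroids for 0 of the 78 genes (adjusted p at least 0.131), where 5.26% of 8182 genes were called, and 7 members had an unadjusted p under 0.05, against 12.5% of these genes. A single edgeR fit with an interaction term, which gives the groups 1 common spread, called 47 of the members and 6889 of 12655 genes (54.4%). For Mrpl45, called higher in spheroid GFP+ cells but without overlap higher in embryo RFP+ cells (243 to 278 against 135 to 237 CPM), the difference was 1.02 ± 0.34 (adjusted p = 0.234).

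**Figure D5:**
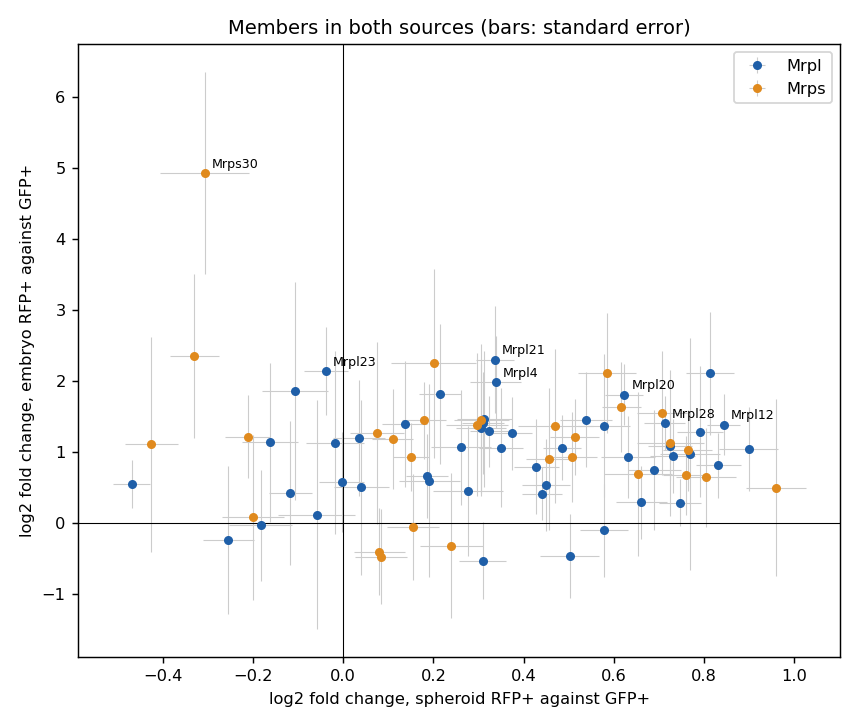
Each point is 1 of the 78 genes (blue Mrpl, orange Mrps), with the log2 fold change of RFP+ against GFP+ cells in spheroids on the horizontal and in embryos on the vertical axis, bars for standard errors and names for the 7 genes called in embryos. Vertical bars are far longer than horizontal ones, and 56 points lie above 0 on both axes.

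Between sources, GFP+ cells of embryos and spheroids differed in most members, but so did all genes. In embryo GFP+ cells 5 members were called higher and 46 (59.0%) lower than in spheroid GFP+ cells, where 19.7% of 11822 genes were called higher and 48.3% lower. The median log2 fold change was -0.75 for the members and -0.67 for all tested genes, a gap of -0.09. Other size factors (RLE) moved the median of all genes by 0.45, and the gap was then -0.08 with 13 members higher and 30 lower, against 29.4% and 39.6% of all tested genes. With the length trend removed the gap turned to 0.35. With DESeq2 it was 0.57, over 14367 tested genes in place of 11822. The members' median was -0.29 with DESeq2 and -0.30 with RLE, and that of all tested genes -0.86 and -0.22. Since the gap varied with the settings and the genes tested, no direction relative to other genes can be given. The 4 largest increases among called members were Mrpl19 with 0.93 ± 0.22 (adjusted p = 0.00028), Mrps11 with 0.57 ± 0.24, Mrpl55 with 0.53 ± 0.23 and Mrpl50 with 0.48 ± 0.21 (adjusted p up to 0.0389). The largest decreases among called members were Mrps30 with -5.96 ± 0.55, Mrpl21 with -2.42 ± 0.23, Mrps18b with -2.40 ± 0.35 and Mrpl23 with -2.27 ± 0.17 (adjusted p at most 6.07e-08). These share the embryo GFP+ libraries with the comparison within embryos and do not add to it.

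Among RFP+ cells the direction of the calls differed. In embryo RFP+ cells 26 members (33.3%) were called higher and 7 (9.0%) lower than in spheroid RFP+ cells, where 20.1% of 11147 genes were called higher and 22.5% lower. The medians were 0.08 and -0.04. Among called members Mrpl55 had the largest increase with 0.84 ± 0.13 (adjusted p = 5.59e-07), then Mrpl33 with 0.60 ± 0.13, Mrpl28 with 0.60 ± 0.09 and Mrps11 with 0.56 ± 0.13. The largest decreases were those of Mrps30 with -0.82 ± 0.24, Mrpl1 with -0.63 ± 0.17, Mrps31 with -0.56 ± 0.16 and Mrps6 with -0.37 ± 0.14 (adjusted p from 0.00264 to 0.0327). A limma fit with 1 variance per group called 15 higher and 1 lower, against 11.8% and 7.3% of all tested genes. Source, stage, sort and plate position cannot be told apart in these comparisons.

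Other genes of mitochondrial translation were grouped by role, and in spheroids their counts are to be read against the 37.8% of all tested genes called higher and 40.1% called lower. Of 5 further proteins of the mitochondrial ribosome whose symbols fall outside the rule, 4 were called higher in RFP+ cells and 0 lower, with a median log2 fold change of 0.32. Chchd1 was the clearest with 0.51 ± 0.04, and Aurkaip1 and Ptcd3 had 0.32 ± 0.04 and 0.34 ± 0.06. Of 15 translation factors 4 were called higher and 3 lower, both below these shares. Slirp, which stabilises mitochondrial messenger RNA, had 0.93 ± 0.06 and Guf1, a translation GTPase, 0.63 ± 0.10, while Mtif3, an initiation factor, had -0.63 ± 0.11. Assembly factors were called higher in 4 and lower in 7 of 20. Among them Tfb1m, a methylase of mitochondrial ribosomal RNA, had 0.69 ± 0.13, and Gtpbp10 and Fastkd2 had -0.56 ± 0.08 and -0.38 ± 0.07.

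Mitochondrial aminoacyl-tRNA synthetases, which load transfer RNA, were called higher in 5 and lower in 4 of 15, with Fars2 and Mars2 at -0.82 ± 0.11 and -0.83 ± 0.11. Of 9 tested regulators of mitochondrial biogenesis and transcription, 3 were higher and 4 lower. Mycn, a transcription factor of growth, averaged 34.2 ± 14.8 CPM (SD, n = 38) in GFP+ and 160 ± 30 CPM (SD, n = 46) in RFP+ libraries, with 2.16 ± 0.10. Of the factors whose letters were searched above, Yy1 had -0.47 ± 0.08, the ETS factor Gabpa -0.50 ± 0.08 and Nrf1, not called, -0.05 ± 0.08 (adjusted p = 0.627). Myc had -0.57 ± 0.14, and Tfb2m, needed to start mitochondrial transcription, -0.71 ± 0.11.

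In embryos, where 6.21% of all tested genes were called higher and 3.88% lower, these 5 lists gave 2 calls in all, both higher in RFP+ cells, with median log2 fold changes of 0.83, 0.53, 0.56, -0.13 and 1.08 in the order above. Mpv17l2, an assembly factor of the large subunit, had reads in 1 GFP+ library (2.04 CPM) and was at 18.2, 25.3, 30.5 and 18.2 CPM in RFP+ libraries (adjusted p = 0.0426). Fars2 had no read in any GFP+ library and was at 35, 29.4, 69.8 and 20.3 CPM in RFP+ libraries (adjusted p = 0.0163). Its pooled rate in RFP+ cells was 92.2 times the rate of 3 counts over the GFP+ group. That ratio leaves out the spread between wells and is not a lower limit. In spheroids Fars2 had gone the other way.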

How the data were processed

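Each library was made by oligo-dT reverse transcription and PCR amplification of the RNA of 10 sorted cells, without molecular identifiers, so intervals on counts cover counting error only. The authors trimmed reads with Trimmomatic 0.36, aligned them to mm10 with HISAT2 2.0.4 and deposited raw counts per gene from featureCounts 1.5.2, per the paper's methods and the submitters' processing notes. The annotation and strand setting of the counting are not given in the sources used here. Library totals are given in the report.

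Levels are CPM of total counts, and TPM used the longest principal transcript. The 4 comparisons were fitted with edgeR 4.0.16 (R 4.3.3, TMM, filterByExpr with a minimum count of 10, quasi-likelihood F-test, Benjamini-Hochberg over all tested genes, adjusted p under 0.1), each on its own 2 groups. Standard errors of the edgeR fits are the size of the log2 fold change over the root of its F statistic. The change in embryos was set against that in spheroids through the difference of both log2 fold changes. It was divided by the root of their summed squared standard errors and tested with 7 degrees of freedom. Alternatives used DESeq2 1.42.0, limma 3.58.1, other size factors, no filter, removal of each library's length trend, and left-out libraries. The fit was tested on simulated data.

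The members, the gene lists and the tests were chosen with earlier results of these data known. Named members were those called in embryos, the 6 largest called changes of each direction in spheroids, the 5 highest and lowest in TPM, and those called in both sources. Mrpl50, Mrpl33, Mrps6, the S18 paralogs, the promoters and the pathway genes were chosen after their values were seen. Marker lists for the second heart field, endothelium, blood and neural cells were also summed. The second heart field list summed to 70.0 to 326 CPM in embryo GFP+ and 324 to 436 CPM in embryo RFP+ libraries, the endothelial list to 0 to 104 and 83.4 to 263 CPM, the blood list to 0 to 1.09 and 0 to 1156 CPM, and the neural list to 0 to 7.15 and 10.1 to 60.2 CPM. The values of 1 gene of the pathway lists are not reported here.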

Additional observations from a re-analysis of the deposited data

Results flagged for a closer look

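Among 64 groups of embryo values, 4 had 1 library far from the rest, where chance gives about 1 in 20. Mrpl1 was at 254 CPM in the embryo GFP+ library D12 and at 1.02 to 65.6 CPM in the others. Mrps30 was at 1.98 CPM in the GFP+ library B12 and had no reads in the others. In the embryo RFP+ library F12, Mrpl28 was at 360 CPM and Mrpl52 at 88.3 CPM, below the other 3 RFP+ libraries in both.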

How the results depend on the processing

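The count of 7 members higher in embryo RFP+ cells became 4 with RLE, 4 with the length trend removed and 2 at threshold 0.05. It ran from 1 to 8 when 1 library was left out (1 without the RFP+ library G11 or H11, 2 without F12, 3 without G12). Among all 8503 tested genes these settings called 482, 421 and 426 higher, against 528 in the main fit. With 1 library left out, 399 to 728 of 8106 to 9022 tested genes were called higher. With the length trend removed, the embryo median log2 fold change of 1.06 became 0.50 by transcript length and 0.67 by the length of all exons. For the 62 members in the middle of the length range it was 1.06 before the trend was removed and 0.54 after. The length of all exons and the middle of the range were chosen after seeing the data. For GFP+ cells of embryos against spheroids, the count higher in embryos was 14 with DESeq2, 13 with RLE, 16 with the trend removed and 0 with limma. DESeq2 called 3417 of all 14367 tested genes higher. The other 3 settings called 3473, 2167 and 592 of 11822 higher. The count lower was 30 with RLE and 30 with limma, against 4687 and 1699 of 11822 tested genes. The median of the members was -0.29, -0.30, -0.33 and -1.28 with DESeq2, RLE, trend removal and limma. It was -0.85 to -0.58 with 1 embryo library left out. For RFP+ cells the count higher in embryos was 15 with limma and 17 to 29 with 1 library left out. The count lower was 14 with the trend removed, 1 with limma and 6 to 11 with 1 library left out. Among all 11147 tested genes limma called 1311 higher and 814 lower, and trend removal 2377 lower. With 1 library left out, 1948 to 2091 of 11426 to 11433 tested genes were higher and 2128 to 2388 lower. The difference between sources was called for 47 members and 54.4% of 12655 tested genes with 1 interaction fit. Its median over the members was 0.30 with the trend removed. Signs turned for GFP+ cells between sources in Mrpl12 (0.12 with DESeq2, 0.13 with RLE, 0.059 with the trend removed) and, with the trend removed, in Mrpl28 (0.35), Mrpl42 (0.49), Mrpl52 (0.084), Mrpl54 (0.016) and Mrps21 (0.82). In spheroids they turned with the trend removed in Mrps18a (-0.011) and Mrps6 (-0.12). The cause was not tested. Of the other values for named members, 1181 kept direction and side of the threshold, 106 lost the call and 19 gained one. No paired analysis was possible because the titles carry well positions and no replicate numbers shared between groups.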
